A study of Mus musculus with 8 samples.

Results

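The protein-coding genes of the large subunit of the cytosolic ribosome were examined for MYSM1 binding in mouse blood progenitor lines. The set has 47 genes, named Rpl or Rplp, and includes the tissue paralogs Rpl3l and Rpl22l1. For each gene the nearest MYSM1-FLAG peak summit to any of its annotated transcription start sites (TSSs) was taken on mm9, and a gene was called bound when that distance was 1 kb or less. In the GENCODE M1 annotation 46 of the 47 genes were found, of 22225 protein-coding gene symbols in all. Of these 46, 26 were bound and 20 were not, a share of 56.5% (exact 95% Clopper-Pearson interval 41.1% to 71.1%, counting error only). Over all protein-coding genes 126 were bound, or 0.567%.

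The large subunit joins amino acids in its peptidyl transferase center, carries the docking stalk for the translation factors, and passes the growing chain out through a tunnel. Its protein genes are transcribed at high rates in dividing cells from CpG-rich promoters, mostly without a TATA box, and their messages start with a run of pyrimidines that couples their translation to mTOR signaling. Blood formation is sensitive to the dose of these proteins: loss of 1 copy of several of the genes causes Diamond-Blackfan anemia, a failure of red cell production. MYSM1 is a deubiquitinase that removes ubiquitin from histone H2A, a mark linked to repression, and it is needed for blood formation in mice and people.

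The summits came from chromatin immunoprecipitation with the FLAG M2 antibody in 2 mouse cell lines kept under puromycin, each with a stable construct for murine MYSM1 that bears a triple FLAG tag. Ba/F3 is a pro-B line grown on interleukin 3 from WEHI conditioned medium, and HPC7 is a multipotent progenitor line grown on stem cell factor. There was 1 MYSM1-FLAG library from each of them, and the other 6 of the 8 libraries (input, H2AK119ub and H3K27ac of each line) were not analysed here. The deposited data are 1 list of 2099 summit positions, with no height, no score and no mark of the line, so the lines cannot be told apart, there was no replicate error, and read depth is not known. The antibody reads the tagged protein, not MYSM1 made by the cells' own gene, and the sources used here do not say whether each line is a single clone.

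The members fell into separate groups with a wide gap between them. All 26 bound genes had their summit within 163 bp of a TSS, with a median distance of 81 bp and a range from 7 bp (Rpl35) to 163 bp. The next gene, Rpl3l, lay 7610 bp from its nearest summit, so no member had a distance between 163 bp and 7610 bp. No member was close to the threshold of 1 kb: the nearest to it were Rpl6 and Rpl37a, each at 163 bp, on the inside, and Rpl3l at 7610 bp and Rpl3 at 37006 bp on the outside. The count of bound members was therefore 26 at a window of 250 bp, 500 bp, 2 kb or 5 kb as well, while the share of all protein-coding genes was 0.36% at 250 bp, 0.445% at 500 bp, 0.729% at 2 kb and 1.29% at 5 kb. Each bound gene had exactly 1 summit within 1 kb and also exactly 1 within 10 kb, and the 26 genes used 26 different summits. Where the promoter was CpG-rich (observed over expected CpG above 0.6), 25 of 43 members were bound, beside 90 of 10148 such genes in all (0.887%).

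**Figure D1:**
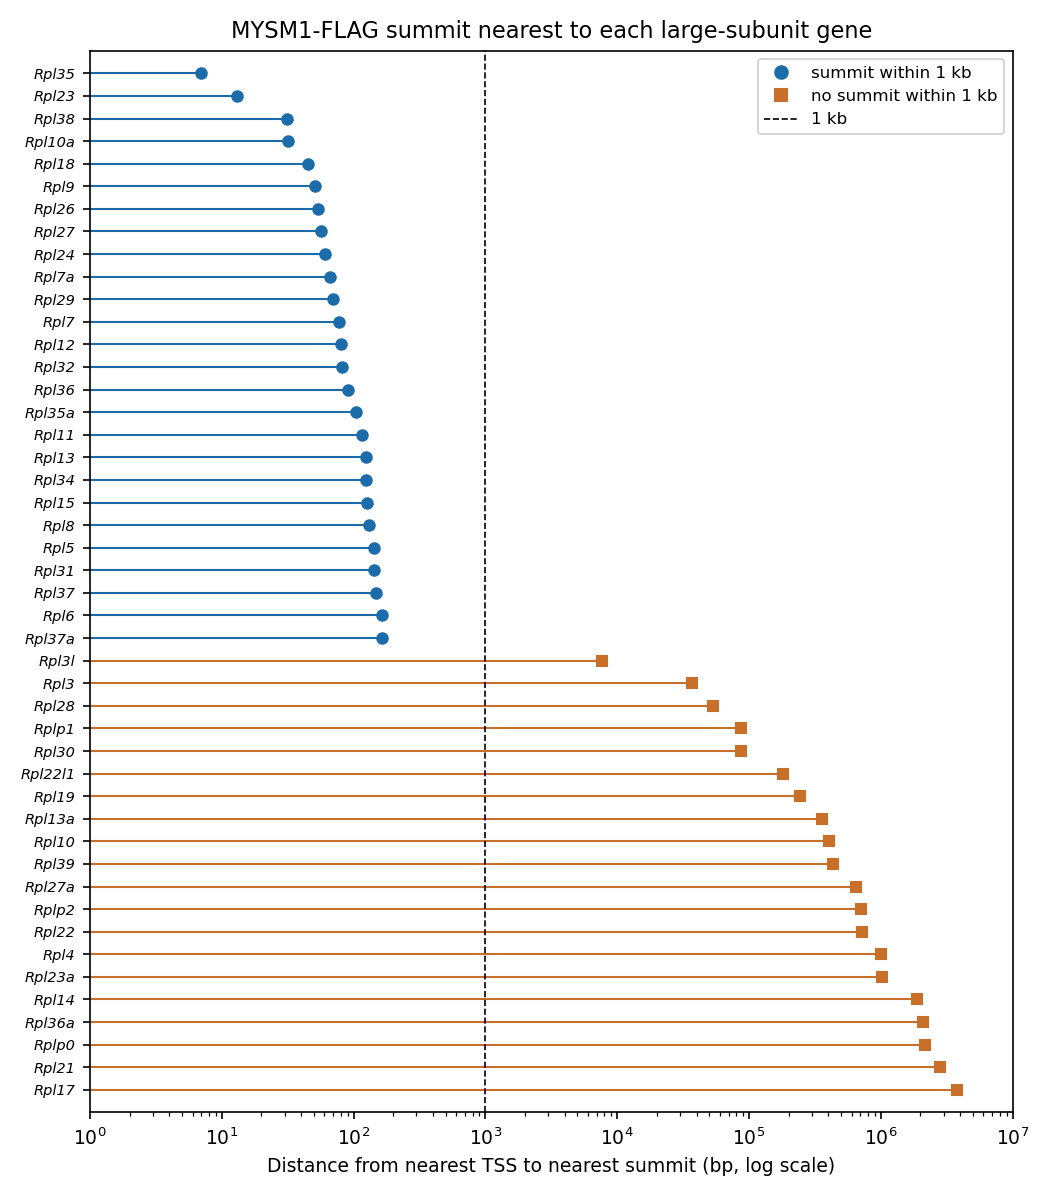
Distance in bp (horizontal axis, log scale) from the nearest TSS of each of the 46 genes (vertical axis) to the nearest MYSM1-FLAG summit; blue circles are the 26 genes with a summit within 1 kb (dashed line) and orange squares the 20 without. The blue points end at 163 bp and the orange points begin at 7610 bp, with no gene between.

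All 3 genes listed for 5S particle and MDM2 binding were bound. This group and the role groups below were drawn up with the binding calls known, so their counts are a description of the genes listed. Each group is small, and none was tested against the 26 of 46 bound over all members (56.5%). Rpl5 and Rpl11 travel with the 5S ribosomal RNA and, with Rpl23, can bind MDM2, the ubiquitin ligase that keeps p53 low. The Rpl5 summit lay at position 108329750 of chromosome 5, in an intron, 143 bp upstream of the nearest of the gene's 6 annotated TSSs and 229 bp downstream of the TSS of its reference transcript. At Rpl11, on the minus strand of chromosome 4, the summit was at 135609192, in an intron, 116 bp downstream of the nearest TSS. At Rpl23, on chromosome 11, it was at 97643577, 13 bp downstream of a TSS and in an exon of a non-coding transcript. All 3 summits sat shortly after exon 1, at 85 bp (Rpl5), 71 bp (Rpl11) and 81 bp (Rpl23) past its end. Exon and intron labels in these accounts are from any annotated transcript, so a summit in an exon of some transcript can lie in an intron of others.

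Of 5 genes for the catalytic core and the tRNA sites, 2 were bound, beside 26 of all 46 members. Rpl8, whose protein reaches toward the peptidyl transferase center, had a summit in an intron at 76734632 on chromosome 15, 131 bp downstream of its single TSS. Rpl10a, the protein of the L1 stalk that handles outgoing tRNA, had a summit at 28465624 on chromosome 17, 32 bp downstream of a TSS, in an exon of a non-coding transcript. The other 3 genes of this group were unbound. Rpl3, which also shapes the catalytic center, lay 37006 bp from a summit. Rpl10, which joins the subunit late in the cytoplasm, lay 401277 bp away on the X chromosome, and Rpl4, whose long loop lines the exit tunnel, lay 996439 bp away.

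In the stalk that recruits translation factors, 1 of 4 genes was bound, beside 26 of all 46 members. Rpl12, at the stalk base, had its summit at 32817340 on chromosome 2, 80 bp downstream of a TSS. This was the only member summit in a coding exon. Rplp0, Rplp1 and Rplp2, the acidic proteins of the stalk, had their nearest summits at 2164577 bp, 86810 bp and 706348 bp.

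Genes for proteins near the exit of the tunnel were bound in 5 of 10 cases, close to the share over all members (26 of 46, 56.5%). Rpl35, a docking site for chain-binding factors, had the smallest distance of all, with a summit 7 bp downstream of a TSS at 38860556 on chromosome 2, in an exon of a non-coding transcript. Rpl26 had a summit at 68715191 on chromosome 11, 54 bp downstream of a TSS and in a 5′ UTR exon. Rpl38, whose loss changes translation of Hox messages and skeletal patterning in mice, had a summit 31 bp downstream at 114529971 on the same chromosome, also in a 5′ UTR exon. Rpl31 and Rpl37 each have 1 annotated TSS. Their summits lay in an intron, 143 bp downstream at 39424839 on chromosome 1 for Rpl31 and 148 bp downstream at 5066761 on chromosome 15 for Rpl37. The unbound genes of this group were Rpl19 (244447 bp), Rpl39 (432662 bp), Rpl22 (720644 bp), Rpl23a (1013278 bp) and Rpl17 (3789213 bp). The summit nearest to Rpl19 was the summit at Rpl23, on the same chromosome.

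All 9 members placed on a list of Diamond-Blackfan anemia genes were bound, beside 26 of all 46 members. The list shares Rpl5, Rpl11, Rpl26, Rpl31 and Rpl35 with the groups above and adds 4 genes. Rpl15 had a summit at 19103357 on chromosome 14, 127 bp downstream of a TSS. Rpl18 had one at 52973572 on chromosome 7, 45 bp downstream. These 2 summits were in 5′ UTR exons, as was that of Rpl27, which lay 57 bp downstream at 101303817 on chromosome 11. The Rpl35a summit lay 105 bp downstream at 33056718 on chromosome 16, in an exon of a non-coding transcript. The list was drawn up with the binding calls known, so its count is a description of these genes. Whether it holds every large-subunit gene tied to the disease was not checked.

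The remaining 11 bound genes were placed in no role group. Those with a summit in an intron were Rpl6 (163 bp downstream, chromosome 5, 121654693), Rpl7 (77 bp upstream, chromosome 1, 16094385), Rpl13 (124 bp upstream, chromosome 8, 125626427) and Rpl32 (82 bp downstream, chromosome 6, 115758683). Rpl36 (91 bp downstream, chromosome 17, 56752909) and Rpl37a (163 bp downstream, chromosome 1, 72757997) also had it in an intron, and each has a single TSS. Rpl9, a protein near the factor-binding site, had its summit 51 bp downstream at 65782567 on chromosome 5. Rpl29, a small basic protein that mice can live without, had it 70 bp downstream at 106331940 on chromosome 9. These summits and that of Rpl34 (124 bp downstream, chromosome 3, 130433128) were in 5′ UTR exons. Rpl7a (66 bp downstream, chromosome 2, 26766407) and Rpl24 (61 bp upstream, chromosome 16, 55966599), the latter a protein at the joint with the small subunit, had theirs in exons of non-coding transcripts.

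For most of the unbound genes the nearest summit was far off. Their median distance was 541893 bp, beside 504015 bp over all protein-coding genes, with 15 of 20 over 100 kb and 6 over 1 Mb. The 5 nearest were Rpl3l (7610 bp), Rpl3 (37006 bp), Rpl28 (53170 bp), Rplp1 (86810 bp) and Rpl30 (87628 bp). The 5 farthest were Rpl17 (3789213 bp), Rpl21 (2790028 bp), Rplp0 (2164577 bp), Rpl36a (2100633 bp) and Rpl14 (1867602 bp). The others were Rpl22l1 (180588 bp), Rpl13a (356614 bp), Rpl27a (651124 bp), Rplp2, Rpl10, Rpl39, Rpl19, Rpl22, Rpl4 and Rpl23a, from 180588 bp to 1013278 bp. No unbound gene had a summit anywhere in its body. Both tissue paralogs were unbound: Rpl3l, which stands in for Rpl3 in striated muscle, and Rpl22l1, the counterpart of Rpl22, a gene needed for T cell development. The 3 members on the X chromosome, Rpl10, Rpl36a and Rpl39, were also unbound, beside 20 of all 46 members. Without a score, a gene with no summit cannot be told apart from a gene with a peak under the authors' threshold.

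Rpl41, which encodes the smallest ribosomal protein, had no entry in the annotation and was not counted above. Its RefSeq promoter sequence matched mm9 at 1 place, with the TSS at 127986224 on the minus strand of chromosome 10. A summit lay 178 bp downstream of that TSS, at 127986046. No GENCODE gene covered that summit. With this start site 27 of 47 members were bound, a step added after the data had been seen.

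Summits of bound genes lay on the transcribed side of the start. Against the nearest TSS, 22 of 26 were downstream and 4 upstream (Rpl5, Rpl7, Rpl13 and Rpl24), with a median offset of 68 bp downstream (quartiles 31.3 and 122 bp, range -143 to 163 bp). All 4 genes with an upstream summit have several annotated TSSs, and against the 5′-most TSS of each gene all 26 summits were downstream, with a median of 176 bp and a range from 82 bp to 2745 bp (Rpl18). RefSeq start sites could be placed on mm9 for 36 members, among them 21 of the 26 bound genes. The summit was downstream at all 21, by a median of 131 bp (range 77 to 258 bp), and the other 5 bound genes had no RefSeq entry.

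Most summits lay shortly past the end of exon 1. In the reference transcript (the lowest-numbered coding transcript with a CCDS entry), 23 of 26 summits lay inside intron 1, between 33 and 132 bp past the end of exon 1. They include 6 summits placed above in a 5′ UTR exon and 6 in an exon of a non-coding transcript, since those exons belong to other transcripts of the gene. Over all 26 the median was 61 bp past that end, with quartiles of 48 and 84.3 bp, and 22 of 26 were within 100 bp of it. Over the 23 summits in intron 1 the SD was 28.1 bp from the end of exon 1, 87.0 bp from the nearest TSS and 106 bp from the TSS of the reference transcript. These 23 were set by where the summit lay, so the values are a description. Over all 26 the SD from the end of exon 1 was 453 bp, set against 82.9 bp from the nearest TSS, with Rpl18 at 2360 bp the farthest. Exon 1 ranged from 39 bp (Rpl8) to 541 bp (Rpl35), with a median of 90 bp. Rpl8 had its summit 93 bp past the end of exon 1 and Rpl35 48 bp past it, although the offsets from the TSS of the reference transcript were 131 bp and 588 bp. Intron 1 had a median length of 365.5 bp. The start codon lay upstream of the summit in 12 genes and downstream in the other 14.

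There were 3 exceptions. At Rpl12 the summit fell inside exon 1, 19 bp before its end. At Rpl34 it fell inside exon 1 of transcript Rpl34-001, 89 bp before the end, and 108 bp past the end of exon 1 in the alternative transcript Rpl34-002. At Rpl18 it lay 2360 bp past exon 1 of Rpl18-001, which starts far upstream, and 63 bp past exon 1 of Rpl18-201, whose TSS was 131 bp away. In unbound genes exon 1 had a median of 74.5 bp, and intron 1 a median of 543 bp (quartiles 349 and 970 bp, beside 207.5 and 628.75 bp in bound genes).

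**Figure D2:**
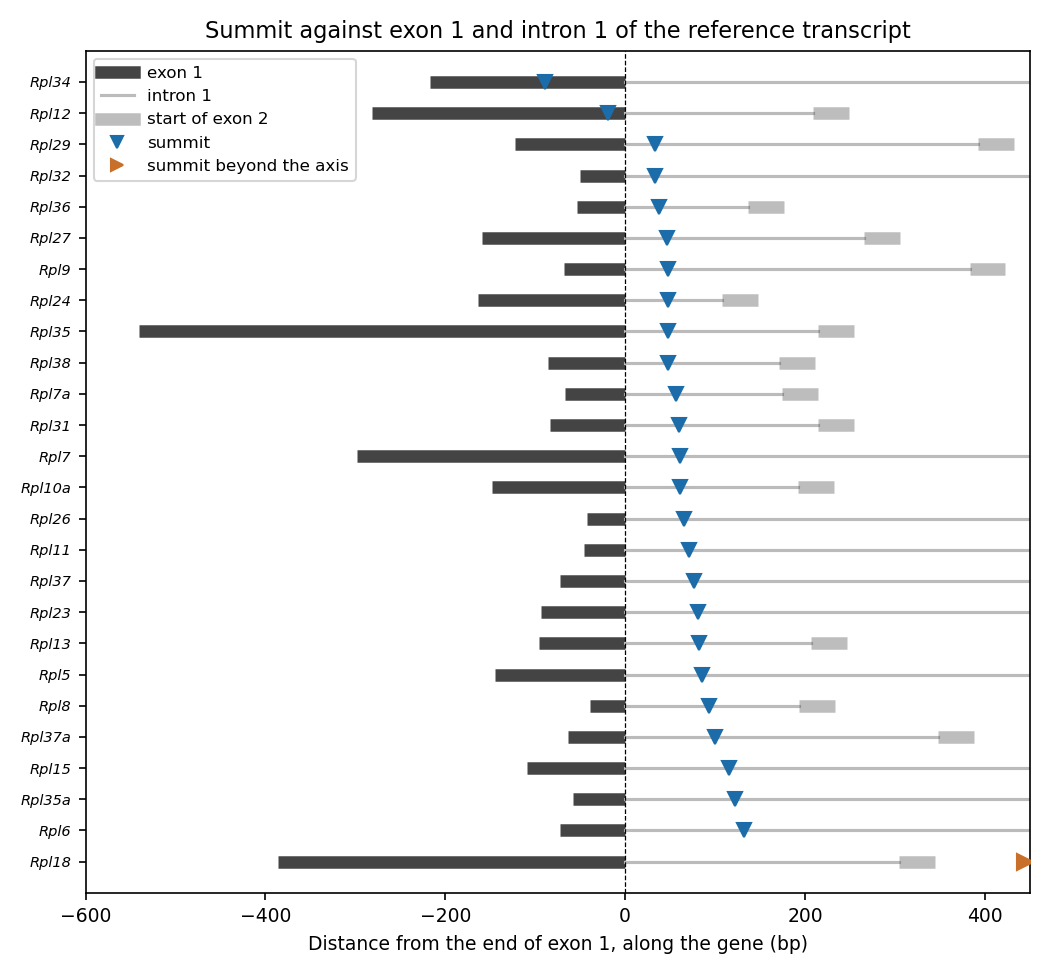
Position of the summit (triangles) of the 26 bound genes along the gene, in bp from the end of exon 1 (dashed line, 0), with exon 1 as a dark bar, intron 1 as a thin line and the start of exon 2 as a pale bar. In 23 genes the summit lies 33 to 132 bp into intron 1; Rpl12 and Rpl34 lie inside exon 1, and Rpl18, at 2360 bp, is marked by an orange arrow at the right edge.

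The junction is shown for 3 bound genes near the median offset and for 2 unbound genes, to let the sequence at the summit be read beside that of genes without one. Each line gives the last 10 bases of exon 1 and the 90 bases that follow, on the coding strand of mm9, and capitals mark GGGCGG or its reverse complement CCGCCC, the core of the SP1 site. The windows are chr2:26766341-26766440 (plus strand, Rpl7a), chr2:32817350-32817449 (plus strand, Rpl12), chr6:115758626-115758725 (minus strand, Rpl32), chr3:28704456-28704555 (plus strand, Rpl22l1) and chr4:151699995-151700094 (plus strand, Rpl22).
Rpl7a (bound): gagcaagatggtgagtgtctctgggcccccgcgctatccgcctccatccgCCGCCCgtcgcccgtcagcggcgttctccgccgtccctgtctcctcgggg
Rpl12 (bound): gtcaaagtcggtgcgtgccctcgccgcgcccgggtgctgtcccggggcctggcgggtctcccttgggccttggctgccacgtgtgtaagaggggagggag
Rpl32 (bound): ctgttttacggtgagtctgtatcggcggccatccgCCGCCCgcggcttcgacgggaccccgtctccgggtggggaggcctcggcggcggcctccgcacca
Rpl22l1 (unbound): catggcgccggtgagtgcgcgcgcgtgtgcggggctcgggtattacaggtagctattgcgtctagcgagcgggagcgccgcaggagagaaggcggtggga
Rpl22 (unbound): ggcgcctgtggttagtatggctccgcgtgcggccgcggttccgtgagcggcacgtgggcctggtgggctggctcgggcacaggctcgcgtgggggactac
The Rpl7a and Rpl32 windows hold the summit 57 and 33 bp past the end of exon 1, and each has 1 match to the SP1 core. Both unbound windows have none. The Rpl12 window begins just downstream of its summit and has none, but a match lay within 100 bp of the Rpl12 summit. Junction windows of unbound Rplp0 and Rpl21 and of bound Rpl26, Rpl27 and Rpl29 held over 30 UTR bases and are not shown. In the wider window described below, the SP1 core was present at Rplp0, Rpl21, Rpl26 and Rpl29 and absent at Rpl27. The lines shown are thus no measure of a difference between bound and unbound genes.

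Over the whole set the SP1 core was found in both groups. A window was taken with 100 bp on each side of a point 61 bp past the end of exon 1. That point is the median position of the bound genes' own summits, a setting added after the summits had been seen. In this window the SP1 core was present in 16 of 26 bound genes (61.5%) and 8 of 20 unbound genes (40%). Over 19258 protein-coding genes with such a window the share was 27.8%. The bound genes set the window, so these shares are a description. The 16 include Rpl18, whose summit, 2360 bp past the end of exon 1, lay outside the window. GC content had a median of 67.2% in bound and 66.2% in unbound genes, beside 58.7% over all genes. The median number of CpG dinucleotides was 20.5 in bound and 18 in unbound genes, beside 9. The YY1 core GCCATNTT was present in 2 bound and 5 unbound genes, beside 2.73% of all genes. Base composition past exon 1 was close in bound and unbound members, and both medians stood above that of all genes. For the SP1 core the order was the reverse within 250 bp of the 5′-most TSS, with 65.4% of bound and 75% of unbound genes.

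Around the 5′-most TSS the values of bound and unbound genes overlapped. In windows of 250 bp on each side of the 5′-most TSS, median GC content was 59.3% in bound genes, 57.0% in unbound genes and 57.1% over all protein-coding genes. With the window placed at the TSS nearest the summit (for unbound genes, the TSS that most transcripts share), GC content had a median of 63.4% in bound genes (quartiles 60.7% and 65.5%) and 57.0% in unbound genes (55.0% and 59.9%), so the quartiles no longer overlapped. The summit sets that window in bound genes alone. At the 5′-most TSS the CpG observed over expected ratio was 0.832 in bound genes, 0.887 in unbound genes and 0.589 over all genes. Rpl3l, with a ratio of 0.0786, was the member that stood apart from the rest. The longest pyrimidine run within 20 bp of that TSS had a median of 6.5 bases in bound genes (quartiles 4.25 and 9.75) and 5 bases in unbound genes (3.75 and 5.25), beside 5 bases over all genes. Both groups spanned short and long runs, from 3 to 17 bases in bound and from 2 to 14 in unbound genes.

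**Figure D3:**
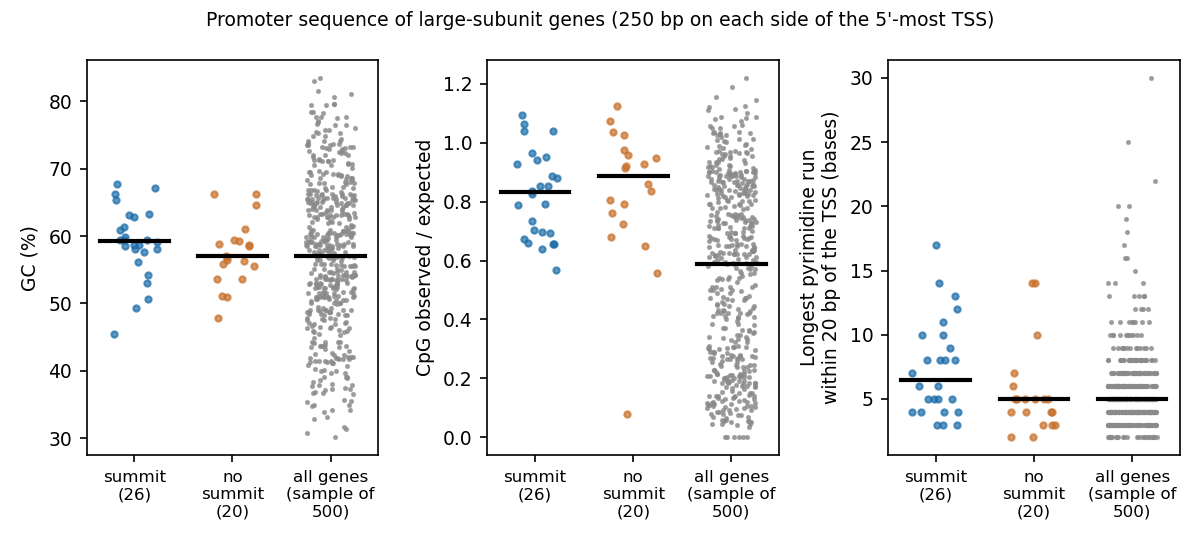
GC content (%), CpG observed over expected, and longest pyrimidine run (bases) at the 5′-most TSS, for the 26 bound genes, the 20 unbound genes and 500 of the 22225 protein-coding genes. The 500 were taken at even steps along the sorted gene symbols. Points are genes and black bars the medians (for all genes, over all 22225). The bound and unbound points overlap in each panel, and both medians sit above that of all genes in CpG ratio (0.832 and 0.887 against 0.589).

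The start sites are printed to show what the pyrimidine runs look like and how far the annotated 5′-most TSS sits from them. Each line has 40 bases before that TSS and the 20 bases from it on, on the coding strand of mm9, for 5 of the 6 bound genes nearest the median offset and for 4 unbound genes in genome order. Capitals mark the longest pyrimidine run within 20 bp of the TSS, or the most 5′ of them where runs of equal length tie, as at Rpl27.
Rpl7a (bound): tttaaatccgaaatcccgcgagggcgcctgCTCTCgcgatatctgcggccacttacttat
Rpl12 (bound): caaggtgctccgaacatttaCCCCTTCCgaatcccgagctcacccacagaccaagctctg
Rpl29 (bound): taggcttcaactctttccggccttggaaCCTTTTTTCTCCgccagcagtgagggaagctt
Rpl26 (bound): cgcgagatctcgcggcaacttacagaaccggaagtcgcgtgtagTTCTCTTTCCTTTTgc
Rpl27 (bound): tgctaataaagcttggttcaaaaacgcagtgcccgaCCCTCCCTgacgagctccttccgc
Rpl22l1 (unbound): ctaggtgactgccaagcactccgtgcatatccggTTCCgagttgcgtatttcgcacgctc
Rpl22 (unbound): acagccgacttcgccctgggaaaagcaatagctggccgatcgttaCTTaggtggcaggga
Rplp0 (unbound): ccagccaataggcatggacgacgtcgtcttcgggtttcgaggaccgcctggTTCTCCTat
Rpl21 (unbound): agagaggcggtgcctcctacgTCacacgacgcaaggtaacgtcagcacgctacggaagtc
These windows lie at chr2:26766244-26766303 (Rpl7a, plus strand), chr2:32817039-32817098 (Rpl12, plus), chr9:106331745-106331804 (Rpl29, plus), chr11:68715045-68715104 (Rpl26, plus) and chr11:101303572-101303631 (Rpl27, plus). The unbound windows lie at chr3:28704318-28704377 (Rpl22l1), chr4:151699811-151699870 (Rpl22), chr5:116009436-116009495 (Rplp0) and chr5:147644426-147644485 (Rpl21), all on the plus strand. The runs were 14 bases at Rpl26 and 12 at Rpl29, 8 at Rpl12 and Rpl27, and 5 at Rpl7a. They were 4 bases at Rpl22l1, 3 at Rpl22, 7 at Rplp0 and 2 at Rpl21. Whether the annotated 5′-most TSS is the start used in these cells was not tested.

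Matches to short motif cores on either strand were counted up to 250 bp from the 5′-most TSS. The ETS core (CCGGAAG or ACTTCCG), bound by GABP and its relatives, was present in 14 of 26 bound and 9 of 20 unbound genes, beside 17.6% of all genes. The palindrome TCTCGCGA was present in 4 bound and 3 unbound genes, beside 1.64%. Both shares lay above that of all genes in the bound and in the unbound group. The SP1 core was present in 17 bound and 15 unbound genes, beside 52.7%.

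Each of the other cores was present in at most 8 genes of either group. A TATA box (TATAAA) was present in 1 bound gene, Rpl15, and in 6 unbound genes, Rpl3, Rpl22l1, Rpl30, Rpl36a, Rpl39 and Rplp0, beside 16.7% of all genes. The E-box CACGTG, the core that MYC and MAX bind, was present in 2 bound genes (Rpl23 and Rpl34) and 6 unbound genes (Rpl14, Rpl19, Rpl22, Rpl30, Rplp1 and Rplp2), beside 10.4%. The YY1 core was present in 4 bound and 5 unbound genes, beside 10.3%. The NFY core CCAAT was present in 8 bound genes (30.8%) and 8 unbound genes (40%), both below the 48.1% of all genes. The NRF1 core TGCGCANGC was present in 4 bound genes and 1 unbound gene, beside 6.48%. On the coding strand within 20 bp of the TSS, CTTTCC was present in 1 bound and 2 unbound genes, beside 1.89%. A match is a run of letters, not a measured site. The differences between bound and unbound genes were not tested, and with 26 and 20 genes a few matches move each share.

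**Figure D4:**
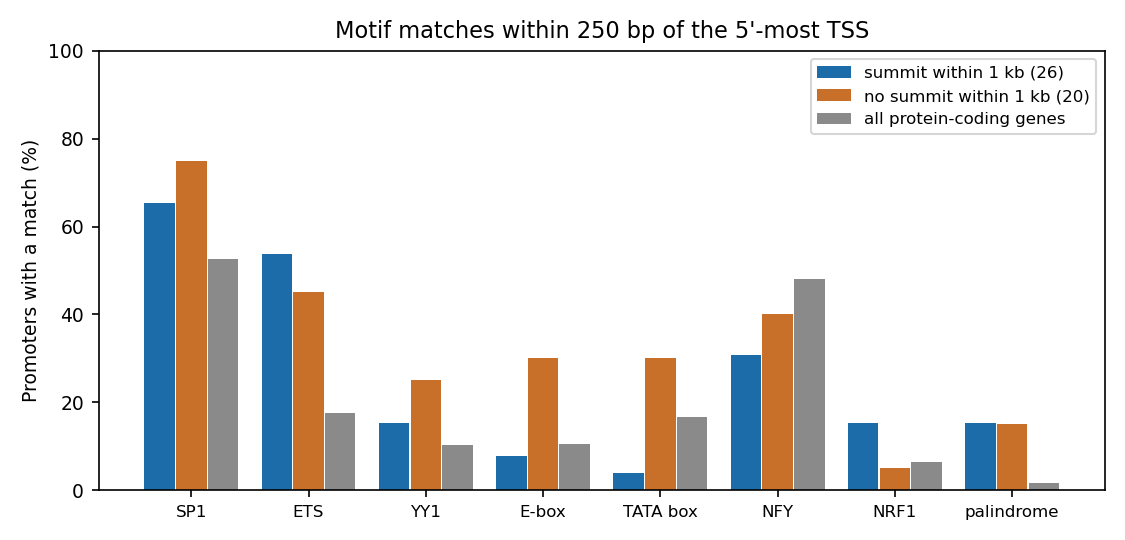
Share of promoters (%, vertical axis) with a match to each motif core within 250 bp of the 5′-most TSS, for the 26 bound genes (blue), the 20 unbound genes (orange) and all 22225 protein-coding genes (gray); palindrome stands for TCTCGCGA. The ETS and palindrome bars of both member groups are above the gray bar, and the TATA box and E-box bars stand for 1 and 2 of 26 bound genes and for 6 and 6 of 20 unbound genes.

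The sequence at the summits themselves differed from that of the list as a whole. The member summits were chosen for lying near a TSS, and summits at other promoters were not set beside them. Unbound members had a median GC content of 66.2% in the window past the end of exon 1. In windows of 100 bp on each side of the 26 summits, GC content had a median of 66.9% (range 54.7% to 73.6%), beside a median of 40.8% over all 2099 summits. The SP1 core was present in 14 of the 26 windows, beside 50 of 2099 (2.38%), a number that includes these 14. No member window held TATAAA, which was present in 48.9% of the list. The median genome copy number of the 31-base words of a window was 1 in 24 of the 26, and 3 at Rpl12 and 2 at Rpl24. In the list 34.9% of windows had a copy number of 1, and the median was 53.

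Ribosomal protein genes have many processed pseudogenes, copies without introns that arose from their messages. The annotation names 60 pseudogenes after bound genes and 57 after unbound genes. None of the first group and 1 of the second, a copy of Rpl21, had a summit within 1 kb.

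Gene length overlapped between the groups. Its median was 3468 bp in bound and 3180 bp in unbound genes, and the median number of TSSs was 5 and 3.5. Small nucleolar RNAs, which guide modification of ribosomal RNA, lay within 8 of 26 bound and 11 of 20 unbound genes. By chromosome, all 3 members on chromosome 1 and all 3 on chromosome 2 were bound, 4 of 6 on chromosome 11 and 3 of 5 on chromosome 5. Over all members it was 26 of 46 (56.5%). On chromosome 7 it was 1 of 5, and on chromosome 9 it was 1 of 4. On chromosomes 15, 16 and 17 it was 2 of 4, 2 of 2 and 2 of 3. Each chromosome held few members, and differences between chromosomes were not tested.

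At 6 bound genes the summit also lay within 1 kb of the TSS of another protein-coding gene, in each case on the opposite strand and with the summit upstream of it. These were Med22 at Rpl7a (210 bp), Lias at Rpl9 (169 bp), Lrsam1 at Rpl12 (206 bp), Nkiras1 at Rpl15 (293 bp), Sphk2 at Rpl18 (200 bp) and Iqcg at Rpl35a (414 bp). In each pair the summit was nearer to a TSS of the ribosomal protein gene, at 45 to 127 bp. A small nucleolar RNA started within 1 kb downstream of the summit at Rpl6, Rpl7a, Rpl13, Rpl23 and Rpl32.

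Other gene lists of the ribosome gave a scale for these counts. The small subunit had 15 of 35 genes bound (42.9%, exact 95% interval 26.3% to 60.6%), an interval that overlaps that of the large subunit, and the difference was not tested. Its summits had a median offset of 96 bp downstream, with 14 of 15 within 250 bp of a TSS. None of 48 genes for ribosome biogenesis was bound, and none of 49 genes of the mitochondrial large subunit, beside 0.567% of all protein-coding genes. These lists were chosen with earlier results of these data known and do not hold every gene of their kind, so their counts describe the genes listed. Every gene found from each list was looked up, and the intervals hold counting error alone, not error of libraries or peak calls. Among the other 85 bound protein-coding genes, summits were spread across the window. Their median offset was 67 bp, close to the 68 bp of the large subunit, but the quartiles were -311 and 243 bp, and 22 of 85 (25.9%) lay 0 to 200 bp downstream of a TSS, beside 22 of 26 (84.6%) in the large subunit and 11 of 15 (73.3%) in the small subunit. The 85 include Med22, Lias, Lrsam1, Nkiras1, Sphk2 and Iqcg, whose summits are those of large-subunit genes measured from the opposite-strand neighbor. The 85 are a mixed set that was not sorted by function. The position just downstream of the start can therefore not be called particular to ribosomal protein genes.

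**Figure D5:**
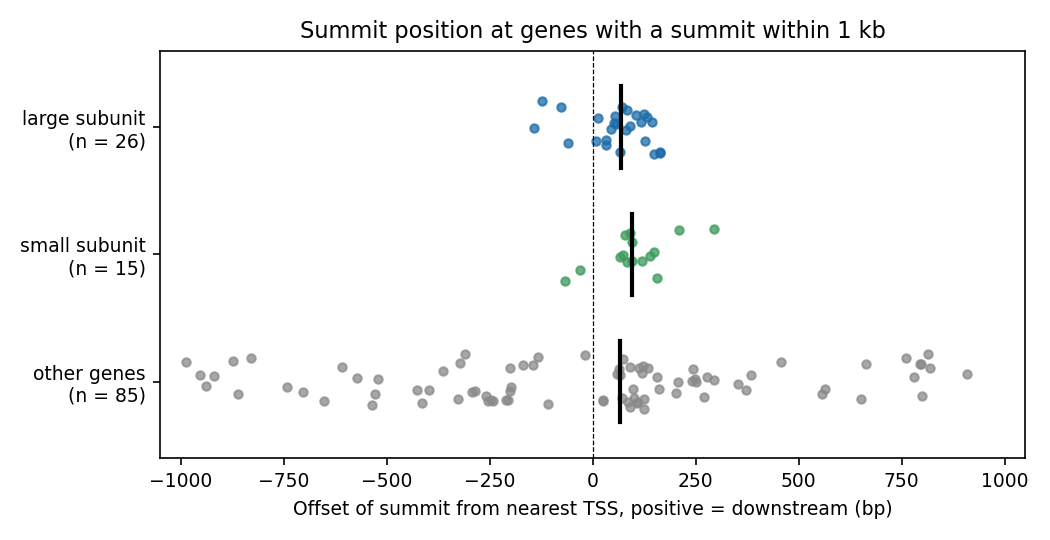
Offset in bp of the summit from the nearest TSS (horizontal axis, positive downstream) for bound genes of the large subunit (26), the small subunit (15) and all other protein-coding genes (85); each point is a gene, the vertical scatter within a row has no meaning, and black bars are medians (68, 96 and 67 bp). Points of both subunits crowd just downstream of the start, and those of the other genes fill the window from -988 to 908 bp.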

How the data were processed

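Per the labels' protocols, cells were fixed for 10 min in 1% formaldehyde, chromatin was sheared to about 250 bp, and MYSM1 was pulled down through its tag. The list was made on mm9 with Bowtie 1.0.0 and MACS 1.4.1 among the tools, per the submitters' processing notes. Thresholds, controls and the handling of reads with several placements are not given in the sources used. Reads with several placements, if dropped, would lower peaks in sequence with copies. Whether such reads were dropped, and whether that lowered any peak here, was not tested. Within 250 bp of the 5′-most TSS the copy number was 1 at every bound and every unbound member. The median share of words found once in the genome was 95.5% in bound and 99.8% in unbound members. Over the 2099 summit windows the median copy number was 53, and 34.9% had a copy number of 1. The deposited list has 4 columns, the chromosome, start, end and name of each peak; on each of its 2099 lines start and end are the same, and that value was taken as a position counted from 1. Whether the authors pooled the lines is not stated.

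Positions were joined to the NCBIM37 genome and GENCODE M1 with Python 3.11.15 and pysam 0.24.0, and a gene's distance is the smallest to any TSS of any transcript. Members, gene lists and motifs were chosen with earlier results of these data known. Every member is named; other genes are named where their TSS lies within 1 kb of a member's summit. Sequences were shown for the 6 bound genes nearest the median offset and for 4 unbound genes in genome order, with no window over 30 UTR bases; 1 start window is not reported here. There was 1 library per group, so no test was run and n is a count of genes. RefSeq start sites (GRCm38.p6 promoters placed by exact match) and the window past exon 1 were added after the data had been seen. The distance, copy number and motif steps were tested on simulated data.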

Additional observations from a re-analysis of the deposited data

How the results depend on the processing

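The count of 26 bound genes was also 26 with windows of 250 bp, 500 bp, 2 kb and 5 kb, with coding transcripts alone, with positions counted from 0, with summits within 250 bp counted once, without the tissue paralogs and on autosomes alone. It was 25 with the 5′-most TSS alone, where Rpl18 was lost, 22 of the 36 members with a RefSeq start site (21 of the 26 plus Rpl41; the other 5 had no entry), and 27 with GENCODE and RefSeq together. The share of all genes, 0.567%, moved to 0.36%, 0.445%, 0.729% and 1.29% with the windows and to 0.887% for CpG-rich promoters. The median offset of 68 bp moved to 176 bp with the 5′-most TSS, and was 117.5 bp with coding transcripts and 137 bp with RefSeq, Rpl41 included. The gap in median GC content between bound and unbound genes, 2.30 points, was 1.10 with 500 bp windows and 6.39 at the nearest TSS. Among motif counts in bound genes, windows of 500 bp on each side gave 4 for the E-box, 15 for NFY and 3 for the TATA box, and windows at the nearest TSS gave 4 for the E-box, 0 for the TATA box and 2 for CTTTCC. In unbound genes the 500 bp windows gave 8 for YY1. The cause of these moves was not tested; the wider windows hold more sequence. The order of bound and unbound shares changed with the window for the SP1 core and for TCTCGCGA, and kept its direction for the other motifs searched. No paired analysis was possible because each group has 1 library and the deposited list does not separate the libraries. Depth and peak height are unknown, so a weak peak at an unbound gene cannot be told apart from none.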
